A study of Mus musculus with 16 samples.

Results

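Cholesterol synthesis and SREBP2 pathway genes were followed in regenerating mouse liver through 30 listed genes: 20 of the synthesis pathway from acetyl units to cholesterol, 4 of its control and 6 of sterol transport or storage. The deposited arrays had a probe set annotated to that gene alone for 28 of the 30, and all 28 passed the filter on low signal, among 13575 genes tested. Acat2, which makes acetoacetyl-CoA, and Soat2, which esterifies cholesterol, were not analysed here. Among the 28 genes 19 encode enzymes, from Hmgcs1 to Dhcr7, and they are described as a group below. Each gene was represented by the probe set with its highest mean over the arrays.

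Liver RNA was hybridised to 16 arrays. They cover 4 arms on days 0, 2, 7 and 14 of partial hepatectomy, an operation that takes out some of the liver and lets the rest regrow, with 1 array per arm and day. Every sample has the same strain background, 129SV/C57BL/6, and the same genotype tag, Metff/ff:ERCre+/+, that is, floxed Met with a tamoxifen-inducible Cre. In the arms MET_KO and MET_KO_canertinib exon 16 of Met, the receptor of hepatocyte growth factor, was removed with this system, and in MET_FLOX and MET_FLOX_canertinib it was kept. The arms MET_FLOX_canertinib and MET_KO_canertinib ate canertinib, an inhibitor of EGFR, in the diet at an intended 80 mg/kg. The ages, the cells in which the Cre is active, whether MET_FLOX received tamoxifen and whether livers were pooled are not given in the sources used here. With no second array for any arm and day, the p-values set each difference against the spread of arrays around a model with arm and day as terms. That spread also holds any difference between arms in their course over days.

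Cholesterol is built in the liver from acetyl-CoA through mevalonate, isoprenoid diphosphates, squalene and lanosterol. The transcription factor SREBP2 turns on most genes of this route when sterols in the endoplasmic reticulum are scarce. SCAP carries SREBP2 to the Golgi for cleavage, and INSIG1 and INSIG2 hold the pair back when sterols are plentiful. Insig1 is itself a target, so its transcript usually moves with those of the enzymes.

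Promoters of 4 enzymes are shown because SREBP2 acts at these genes together with NF-Y, whose box is CCAAT. RefSeq promoters on GRCm38.p6, from 250 bases before to 50 after the gene start, were matched by gene ID for 24 of the 30 genes. The exceptions were Fdps, Fdft1, Sqle, Stard4, Npc1 and Soat2. The sterol element was searched as TCACNCCAC on both strands, with no mismatch allowed. This form was present in 1.44% of the 27025 genes in the table and in 1 of the 24 members (4.17%), Hmgcs1, where it lies from base -137 to -129. Sites with other letters or outside the window were not searched, so the other members may still have one. The box CCAAT, also on both strands, was present in 41.1% of those genes and in 22 of the 24 members (91.7%), a description with no test. Below are the 250 bases before the start, 5′ to 3′ on the gene's own strand, with both motifs in capitals (ATTGG is CCAAT on the other strand). Hmgcs1 is shown for its sterol element and the others, chosen after their values were seen, for their low level with canertinib. The positions are chr13:119690101-119690350 (plus strand) for Hmgcs1, chr5:114444019-114444268 (plus) for Mvk, chr8:64733579-64733828 (minus) for Msmo1 and chr13:8885356-8885605 (plus) for Idi1. These windows hold 3, 5, 3 and 2 CCAAT boxes.
Hmgcs1: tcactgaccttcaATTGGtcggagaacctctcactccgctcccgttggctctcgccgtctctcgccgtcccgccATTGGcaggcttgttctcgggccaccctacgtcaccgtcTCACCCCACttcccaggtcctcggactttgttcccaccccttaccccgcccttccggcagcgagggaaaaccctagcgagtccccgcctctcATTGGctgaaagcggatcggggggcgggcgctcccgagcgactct
Mvk: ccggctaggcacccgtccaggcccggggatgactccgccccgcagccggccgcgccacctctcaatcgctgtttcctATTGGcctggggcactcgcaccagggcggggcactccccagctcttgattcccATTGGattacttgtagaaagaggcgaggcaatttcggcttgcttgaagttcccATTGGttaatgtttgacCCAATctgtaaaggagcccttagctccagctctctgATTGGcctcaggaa
Msmo1: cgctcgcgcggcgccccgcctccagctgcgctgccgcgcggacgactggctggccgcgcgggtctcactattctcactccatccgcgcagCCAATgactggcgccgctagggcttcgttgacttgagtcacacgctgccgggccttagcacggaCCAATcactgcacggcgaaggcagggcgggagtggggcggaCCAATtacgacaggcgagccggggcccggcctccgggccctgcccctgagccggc
Idi1: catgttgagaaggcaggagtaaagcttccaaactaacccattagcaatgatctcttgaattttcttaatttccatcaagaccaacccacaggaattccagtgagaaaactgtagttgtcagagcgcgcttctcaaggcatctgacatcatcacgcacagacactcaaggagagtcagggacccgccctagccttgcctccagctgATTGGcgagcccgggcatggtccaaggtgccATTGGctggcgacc

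The deposited value is the MAS5 signal, a linear intensity scaled by the authors to the same trimmed mean, 500, in every array. Array medians nevertheless fell into 2 sets that no label names. The low set, with medians from 156.4 to 188.7, was made of the arms without canertinib on days 0, 2 and 7, and the high set, from 244.0 to 265.1, held the 10 other arrays. Canertinib and array set thus cannot be told apart at days 0, 2 and 7, whereas at day 14 all 4 arrays lie in the high set, as do all 8 arrays of the canertinib arms. The ratio of the Gapdh 3′ to 5′ control probe sets, a sign of RNA integrity, was 0.765 to 0.869 without the drug and 0.950 to 2.24 with it. It was highest in MET_FLOX_canertinib at days 7 (1.52) and 14 (2.24). These ranges do not overlap, so canertinib and this ratio cannot be told apart on any day, day 14 included. One Met probe set gave 982 to 2066 and the other 98 to 700 over all arms, and since their place relative to exon 16 is not stated, neither checks the deletion.

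**Figure D1:**
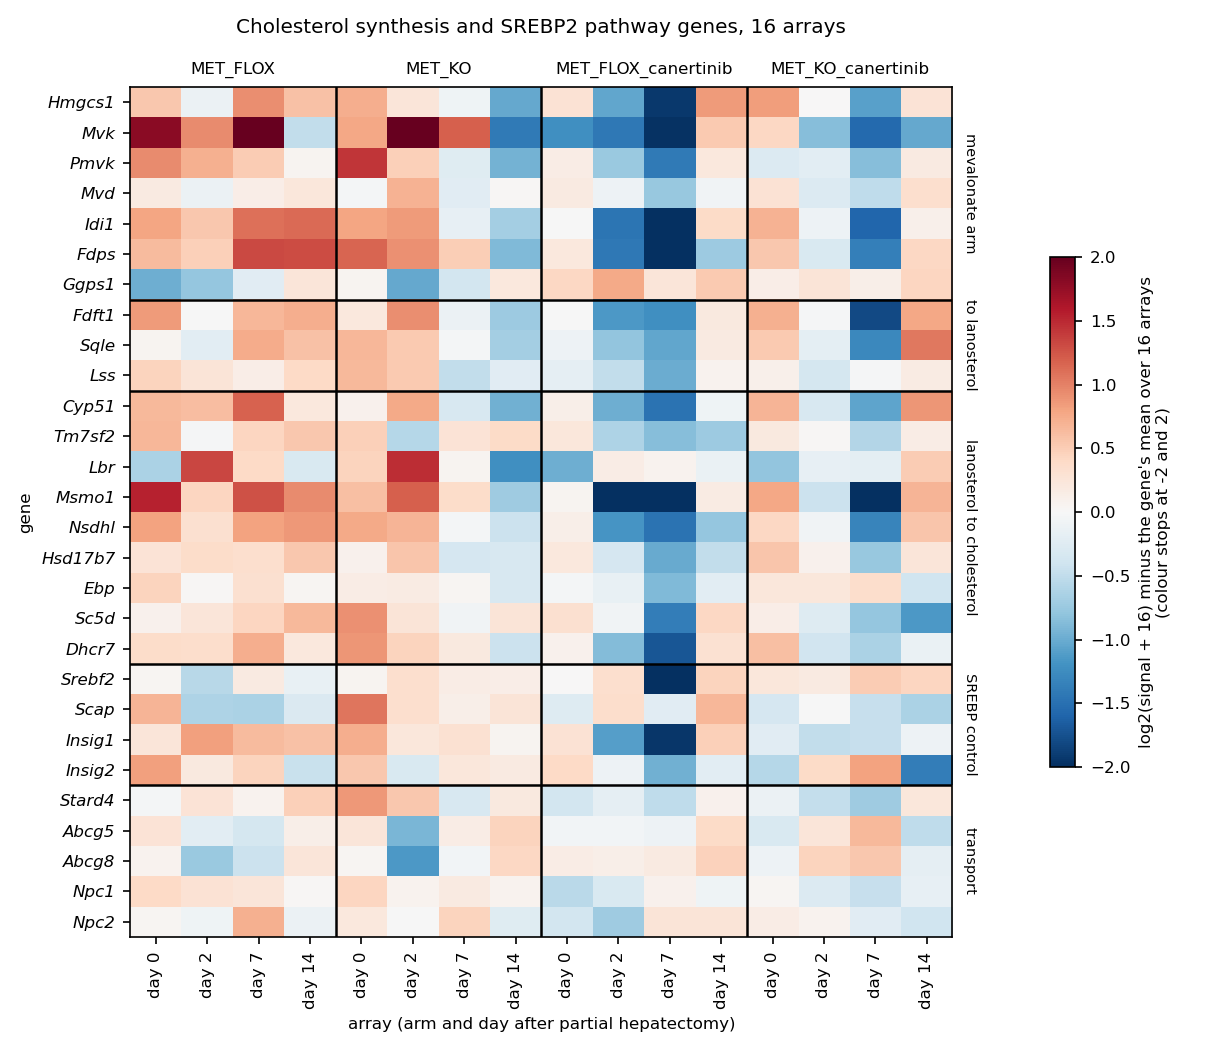
Colour gives log2(signal + 16) of each of 28 genes (rows, grouped by role) minus that gene's mean over 16 arrays (columns, by arm and day). Most enzymes are darkest blue at day 7 of the canertinib arms, with a mean over 19 enzymes of -1.33 (MET_FLOX_canertinib) and -0.90 (MET_KO_canertinib).

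The first question was whether the pathway differed with canertinib, which was tested with limma over all 16 arrays with arm and day as terms. Of the 28 genes, 13 were lower and 1 was higher in the canertinib arms at a Benjamini-Hochberg adjusted p below 0.05, while 10.6% of all genes were called lower and 24.0% higher. The median log2 difference was -0.44 over the members, -0.55 over the 19 enzymes and 0.14 over all genes tested. Day 14, the only day on which both kinds of arm share an array set, could not test these calls, since with its 4 arrays limma called 0% of all genes. The estimates there lay above 0 for 16 members and below 0 for 12, with a median of 0.02, and no member was called or had an unadjusted p below 0.05. Adding array set to the model leaves only day 14 to estimate the drug and so repeats those estimates, with 0 members called, 2 at an unadjusted p below 0.05 and 0.110% of all genes called. Without the day 7 arrays, an alternative chosen after the values were seen, limma called 0 members and 7.68% of all genes, although the 14 members kept their sign. Quantile normalization left 3 members lower and 2 higher, against 8.36% and 15.0% of all genes, so the share of members lower was then near that of all genes. Centring each array on its median moved the all-gene median to -0.15 and gave 18 members lower and 0 higher, against 24.7% and 9.92% of all genes.

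In the mevalonate arm 4 of 7 genes were lower with canertinib and 1 was higher. Fdps makes farnesyl diphosphate, from which both squalene and the prenyl groups of proteins are drawn. Its signal was 4716, 4232, 7625 and 7461 in MET_FLOX at days 0, 2, 7 and 14, and 6830, 5714, 4248 and 1631 in MET_KO. With canertinib the readings were 3506, 1117, 436 and 1818 when Met was kept (MET_FLOX_canertinib), and 4428, 2437, 1161 and 4021 when it was deleted (MET_KO_canertinib). The canertinib arrays were lower in 7 of 8 pairs of the same genotype and day, the exception being the knockout pair of day 14. Over all days the log2 difference was -1.36 (SE 0.36, limma adjusted p = 0.0126), a 2.56-fold lower level.

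Idi1, the isomerase that makes dimethylallyl diphosphate, had a like course up to day 7. It gave 8578, 7260, 10671 and 10916 in MET_FLOX and 8604, 9034, 4446 and 3107 in MET_KO over the 4 days. The canertinib arms read 4938, 1797, 946 and 6462 (MET_FLOX_canertinib) and 8052, 4642, 1653 and 5321 (MET_KO_canertinib). Both canertinib arms were lowest at day 7, and by day 14 one stood above its day 0 level and the other below it. The difference over all days was -1.09 (SE 0.33, limma adjusted p = 0.0218), and at day 14 it was 0.01 (SE 0.60).

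Mvk, which phosphorylates mevalonate, differed by -1.78 (SE 0.51, limma adjusted p = 0.0180). Its signal was 1216, 663, 1480 and 233 in MET_FLOX, and 583, 1632, 790 and 117 in MET_KO. MET_FLOX_canertinib read 135, 115, 74 and 489, and MET_KO_canertinib read 456, 180, 104 and 158. Here the arms without the drug were themselves low at day 14, the one day on which they belong to the high array set, and at that day the difference was 0.70 (SE 0.67). Mvk lay above its array's median on 8 of 16 arrays, 6 of them without the drug at days 0, 2 and 7, so it passed the filter mainly through the group where it was high. Most of its values with the drug lay below the array median, the size of the difference is therefore uncertain, and its difference was -1.87 with a pseudocount of 1 and -1.56 with one of 64. Pmvk, the next kinase, differed by -0.74 (SE 0.27, limma adjusted p = 0.0450) and by 0.64 at day 14.

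Hmgcs1, which makes HMG-CoA and carries the sterol element shown above, was not called over all days (-0.45, SE 0.34, limma adjusted p = 0.311) yet had a wide course. It gave 18934, 11967, 24992 and 19650 in MET_FLOX and 21610, 15474, 12226 and 6424 in MET_KO. MET_FLOX_canertinib had 15942, 6330, 3395 and 23645, and MET_KO_canertinib had 23320, 13152, 6123 and 15726. The day 7 arrays of both canertinib arms were the lowest of the 16, and at day 14 both stood above MET_KO. Its other probe sets that passed the filter (r = 0.885 to 0.916 with the one used) differed more between MET_FLOX_canertinib and MET_FLOX. The brightest of these read 9292.5 against 18148.4 at day 0 and 9200.1 against 13350.5 at day 14. The size of the Hmgcs1 difference, and its sign in that pair at day 14, thus depend on the probe set. Mvd, the decarboxylase that yields isopentenyl diphosphate, differed by -0.22 (SE 0.16).

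Ggps1, which lengthens farnesyl to geranylgeranyl diphosphate off the route to sterols, was the one member called higher, by 0.72 (SE 0.19, limma adjusted p = 0.0126). Its signal was 240, 279, 413 and 582 in MET_FLOX and 509, 231, 374 and 571 in MET_KO. The canertinib arms gave 654, 836, 580 and 706 without and 538, 590, 529 and 666 with the Met deletion. It was higher with the drug in 8 of 8 pairs, and by 0.25 (SE 0.24) at day 14. It was not called with each array centred on its median (0.42, limma adjusted p = 0.0691) or with all its probe sets averaged (0.23, adjusted p = 0.349). Of its 3 other probe sets, one correlated with the one used at 0.84 over the 16 arrays and the others at 0.36 and -0.18.

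Among the 3 enzymes that carry farnesyl diphosphate to lanosterol, Lss, the lanosterol cyclase, was called lower (-0.43, SE 0.16, limma adjusted p = 0.0490). Fdft1, squalene synthase, differed by -0.63 (SE 0.31, adjusted p = 0.126) and Sqle, the squalene epoxidase, by -0.42 (SE 0.29, adjusted p = 0.268). Both were at their lowest of 16 arrays in MET_KO_canertinib at day 7, Fdft1 at 887 against 5137 at day 0 of that arm, and Sqle at 1236 against 4389. Sqle then reached its highest value of all, 6345, in the same arm at day 14. For Fdft1 the second brightest probe set followed the one used (r = 0.96), while the 2 dim ones did not (-0.46 and -0.15).

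From lanosterol to cholesterol 5 of 9 enzymes were called lower. Msmo1, the methyl sterol oxidase, differed by -1.41 (SE 0.41, limma adjusted p = 0.0188). It gave 12530, 5839, 10433 and 8358 in MET_FLOX and 6536, 9848, 5542 and 2626 in MET_KO. The canertinib arms gave 4454, 862, 844 and 4818 (MET_FLOX_canertinib) and 7362, 3197, 909 and 6878 (MET_KO_canertinib). At days 2 and 7 both canertinib arrays lay below both others, and at day 14 they lay between MET_FLOX and MET_KO. Nsdhl, a sterol dehydrogenase that acts after Msmo1, had the smallest adjusted p of the members (-0.94, SE 0.23, adjusted p = 0.00904).

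The other called enzymes of this stretch were Sc5d, the lathosterol oxidase (-0.69, SE 0.22, limma adjusted p = 0.0286), Dhcr7, which makes the final reduction on one branch (-0.69, SE 0.24, adjusted p = 0.0412), and the reductase Tm7sf2 (-0.54, SE 0.15, adjusted p = 0.0169). Tm7sf2 was the only enzyme in which both canertinib arrays of day 14 lay below both others, 1874 and 3426 against 4536 and 4072. Cyp51, the lanosterol demethylase (-0.55, SE 0.30), Hsd17b7 (-0.38, SE 0.16), the isomerase Ebp (-0.22, SE 0.15) and Lbr (-0.39, SE 0.29) were not called. For Hsd17b7 a probe set of nearly the same brightness correlated with the one used at only 0.57, and others at 0.88 and -0.11. Its results here and below therefore depend on the probe set. Lbr and Tm7sf2 carry the same sterol reductase activity, and Lbr also anchors chromatin at the nuclear envelope.

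**Figure D2:**
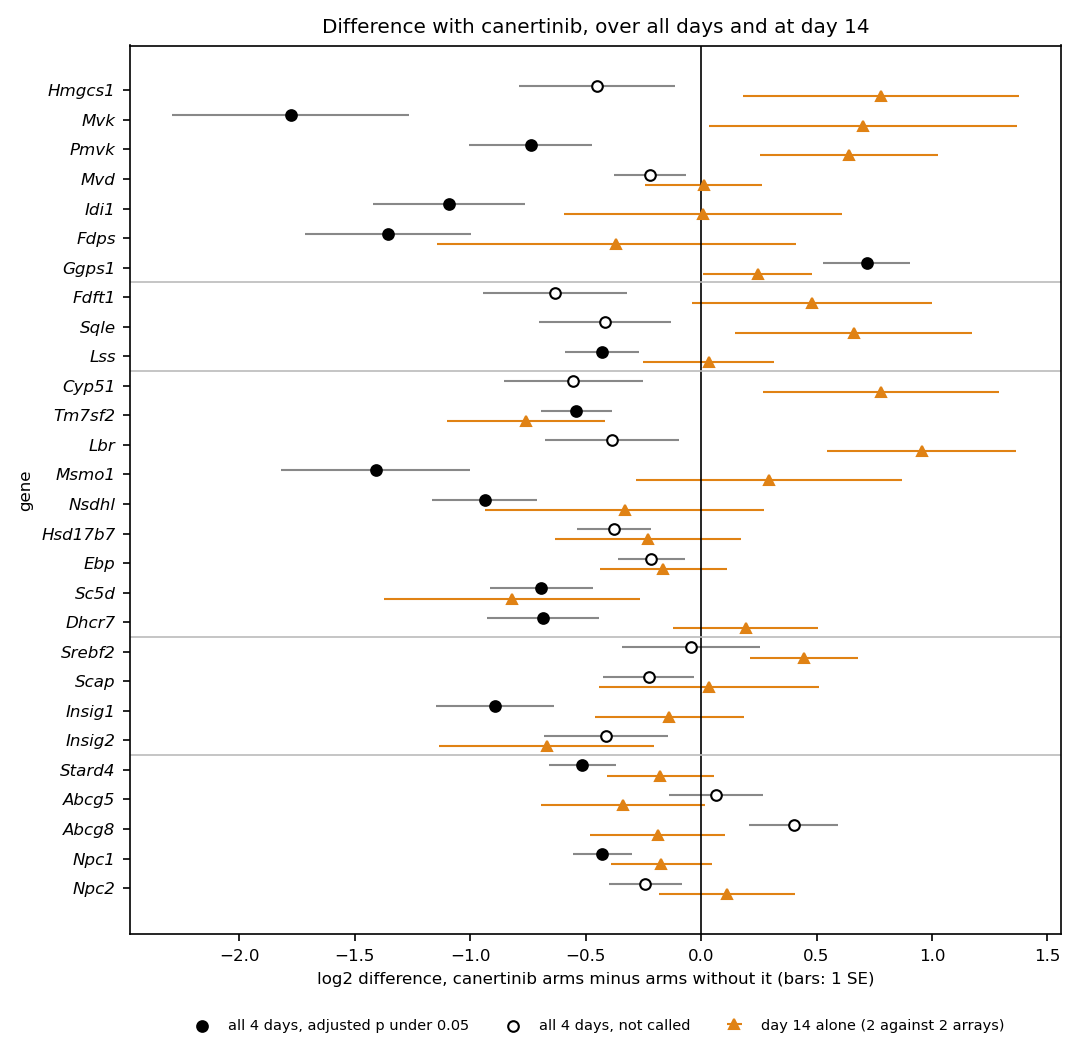
Points give the limma log2 difference of the canertinib arms against the arms without it for 28 genes, with bars of 1 SE. Circles use all 4 days (filled when the adjusted p is under 0.05) and triangles day 14 alone; the circles of 25 genes lie below 0, the triangles of 12.

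In the control genes the difference was largest in Insig1, the feedback inhibitor that SREBP2 induces. Insig1 gave 3970, 5947, 5223 and 5079 in MET_FLOX and 5565, 3947, 4156 and 3495 in MET_KO. MET_FLOX_canertinib read 4144, 1564, 861 and 4681, and MET_KO_canertinib 2864, 2400, 2445 and 3134, a deep trough in the first and a nearly level course in the second. It was called lower over all days (-0.89, SE 0.26, limma adjusted p = 0.0179), with a day 14 difference of -0.14 (SE 0.32).

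Srebf2, which encodes SREBP2, was not called (-0.04, SE 0.30, limma adjusted p = 0.923). Its probe set lay between 554 and 1185 on 15 arrays and at 156.5 in MET_FLOX_canertinib at day 7. The second Srebf2 probe set was also at its lowest there, but at 446 against 555 to 1295 on the other arrays, so the depth of the trough depends on the probe set. In MET_KO_canertinib at day 7, where most enzymes were low as well, Srebf2 gave 1185 and 601. Scap differed by -0.23 (SE 0.20) and Insig2, the other retention protein, by -0.41 (SE 0.27), neither called.

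Among the transport genes Stard4, a cytosolic sterol carrier and SREBP2 target, was called lower (-0.51, SE 0.14, limma adjusted p = 0.0166), as was Npc1, which exports cholesterol from lysosomes (-0.43, SE 0.13, adjusted p = 0.0222) and was lower in 8 of 8 pairs. Npc2, its soluble partner in the lysosome, differed by -0.24 (SE 0.16). Abcg5 and Abcg8, the subunits of the transporter that secretes sterols into bile and targets of LXR rather than SREBP2, differed by 0.06 (SE 0.20) and 0.40 (SE 0.19), neither called. Npc1 had the smallest SD over the arrays of the 28 members, 0.29 on the log2 scale, with signals between 667 and 1332.

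Pairs of arms that share a genotype split the drug comparison. In MET_FLOX_canertinib against MET_FLOX 5 members were called, all lower: Msmo1 (-2.16, SE 0.58), Fdps (-2.11, SE 0.51), Idi1 (-1.76, SE 0.47), Nsdhl (-1.53, SE 0.32) and Tm7sf2 (-0.89, SE 0.22), with limma adjusted p from 0.0281 to 0.0430, against 2.67% of all genes called lower. Each was lower at 4 of 4 days. Leaving out 1 array, for which no share of all genes is given here, moved this count between 0 and 14. It was 0 without MET_FLOX day 2 or 7 or MET_FLOX_canertinib day 0, 2 or 7, 2 or 3 without MET_FLOX day 0, MET_KO day 0 or 7 or MET_KO_canertinib day 0, 8 without MET_KO or MET_KO_canertinib day 14, and 14 without MET_FLOX_canertinib day 14. In MET_KO_canertinib against MET_KO no member was called by limma, 4 had an unadjusted p below 0.05 (Sc5d, Stard4, Scap and Npc1, all lower), and 8.23% of all genes were called. The member medians were -0.72 and -0.27.

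That these pairs differ from each other was not shown. The genotype by canertinib interaction called 0 members with limma, with 5 at an unadjusted p below 0.05 and 0.0147% of all genes called. The difference of the differences lay above 0 for 17 of 19 enzymes, with a median of 0.67 and a median SE of 0.53. The 5 were Cyp51 (1.43), Nsdhl (1.19), Hsd17b7 (0.83) and Tm7sf2 (0.69) above 0, and Scap, with the smallest unadjusted p (0.0102), below it (-1.16, SE 0.39). These values and the pair differences share the same arrays, so they are not separate evidence.

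**Figure D3:**
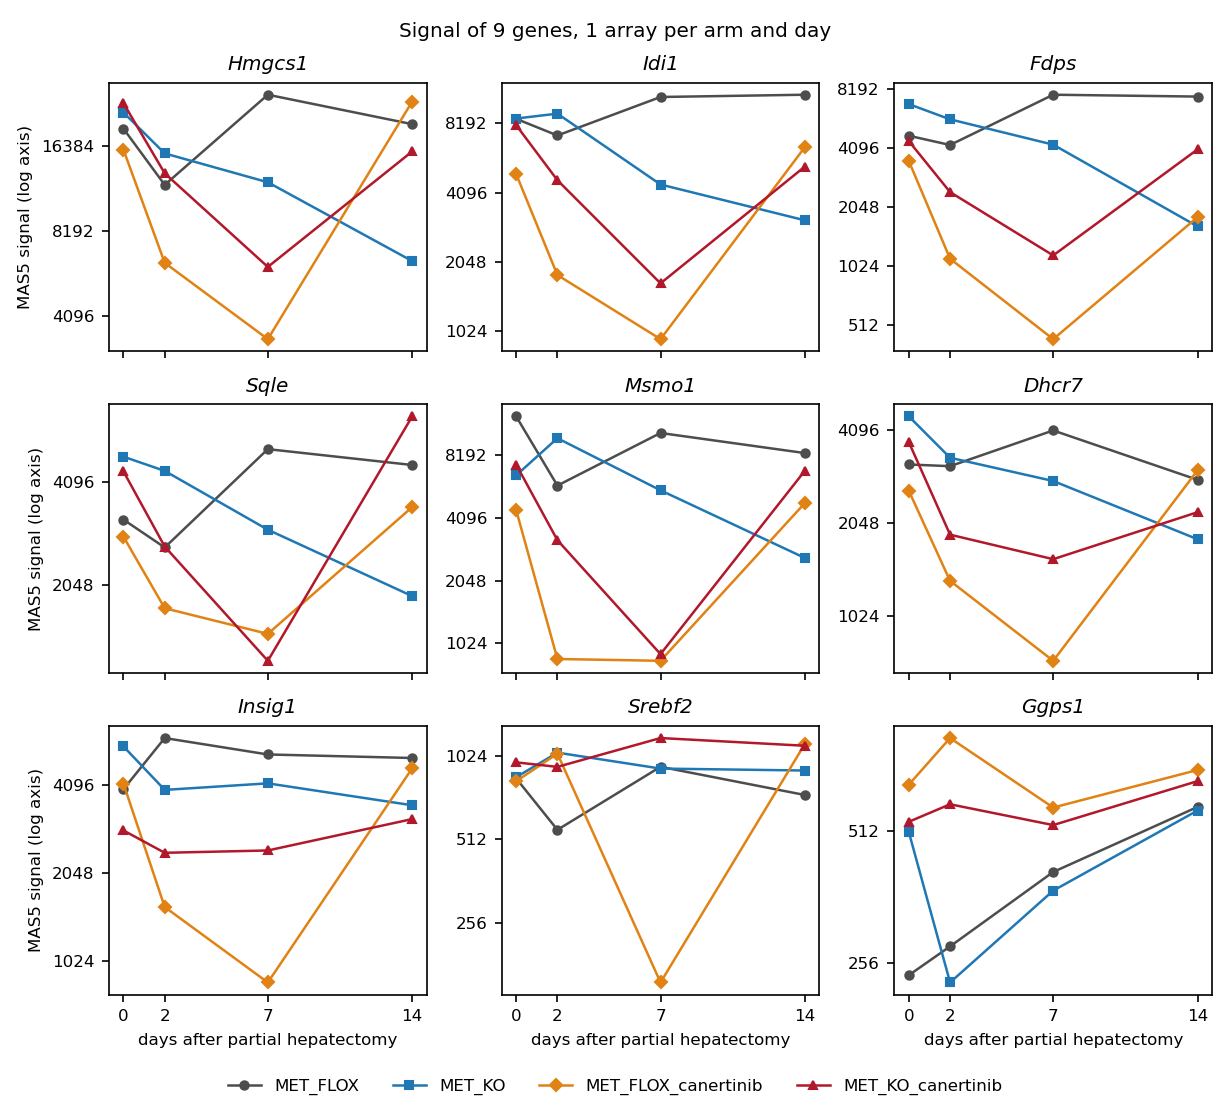
MAS5 signal (log axis, its range set for each gene) of 9 genes against days after partial hepatectomy, 1 array per point, with a line for each arm. Hmgcs1, Idi1, Fdps, Sqle and Msmo1 share a trough at day 7 in both canertinib arms and a decline to day 14 in MET_KO, while Srebf2 and Ggps1 do not follow that course.

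The course over days was the more regular feature of the enzymes, and within the canertinib arms it lies inside the high array set. Both day 7 arrays lay below all 4 arrays of days 0 and 14 for 15 of 28 members and 13 of 19 enzymes, against 6.29% of all genes. The 13 were Hmgcs1, Mvk, Pmvk, Mvd, Idi1, Fdps, Fdft1, Sqle, Cyp51, Msmo1, Nsdhl, Hsd17b7 and Dhcr7, and the other members were Stard4 and Insig1. In the arms without the drug the same held for 1 member, Abcg8, and 0 enzymes, against 13.4% of all genes, although there day 14 belongs to another array set. This grouping was formed after the values were seen and carries no test.

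Measured from day 0, the 19 enzymes had a median log2 difference at day 7 of 0.28 for MET_FLOX and -0.43 for MET_KO, but of -1.22 for MET_FLOX_canertinib and -1.32 for MET_KO_canertinib, while the medians of all genes were between -0.06 and 0.01. Differences below -1 were seen in 12 enzymes in MET_FLOX_canertinib and 11 in MET_KO_canertinib, against 2 in MET_KO and 0 in MET_FLOX. The shares of all genes below -1 were 6.95%, 4.38%, 4.17% and 5.17% in that order of arms. Day 7 of MET_FLOX_canertinib was the lowest of all 16 arrays for 15 of the 19 enzymes and day 7 of MET_KO_canertinib for 2. Shares of all genes lowest in these arrays are not given here, so whether these counts are particular to the enzymes was not tested. At day 2 the enzyme medians were -0.84 for MET_FLOX_canertinib and -0.56 for MET_KO_canertinib, against -0.24 for MET_FLOX and -0.08 for MET_KO. By day 14 they were 0.04 in MET_FLOX, 0.11 in MET_FLOX_canertinib and -0.06 in MET_KO_canertinib, but -1.19 in MET_KO.

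**Figure D4:**
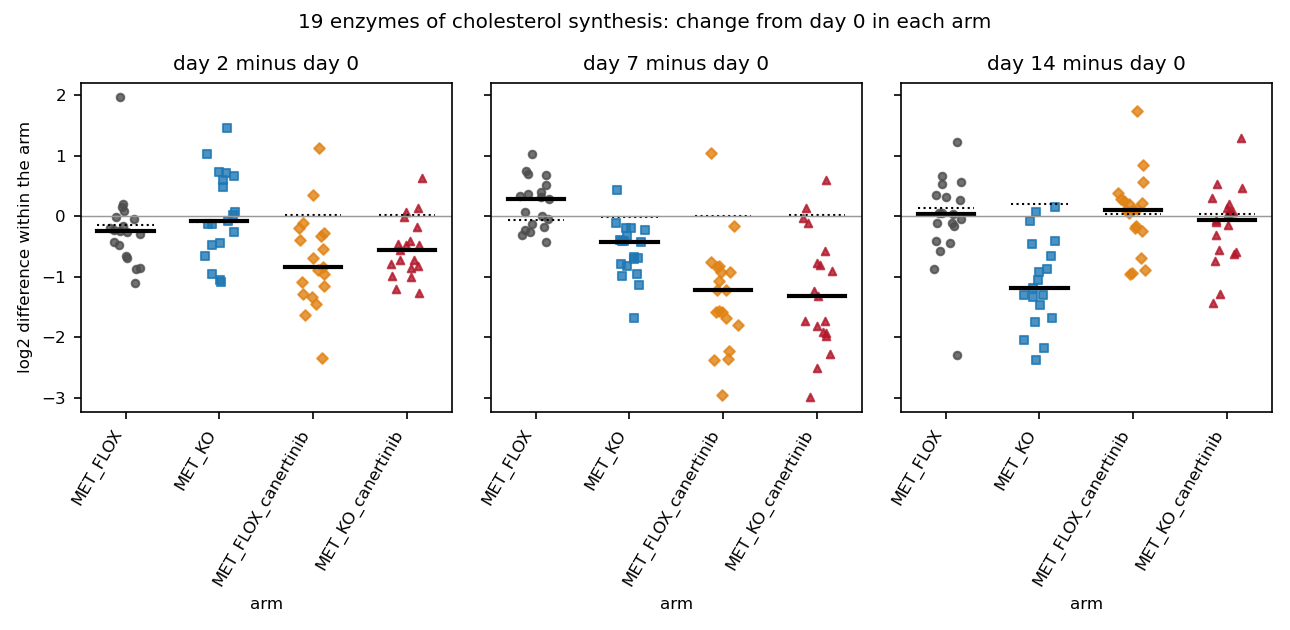
Each point is 1 of 19 enzymes, as log2(signal + 16) at days 2, 7 and 14 minus day 0 of the same arm. Thick lines are medians over the enzymes and dotted lines medians over all 13575 genes; at day 7 the enzyme medians are -1.22 and -1.32 in the canertinib arms against 0.28 in MET_FLOX.

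Tests of this course over all genes gave no calls among the members. For day 7 against day 0 over the 4 arms limma called 0 members, 14 had an unadjusted p below 0.05, the member median was -0.59 and 0.00737% of all genes were called. The lowest adjusted p of a member was 0.770, for Nsdhl (-1.03, SE 0.32) and Hsd17b7 (-0.72, SE 0.23). Fitted in the high array set alone, the count was again 0, with 16 members at an unadjusted p below 0.05 and 0% of all genes called. The member median was then -1.04, with Msmo1 at -2.69 (SE 0.40), Fdps at -2.44 (SE 0.28), Idi1 at -2.32 (SE 0.37) and Hmgcs1 at -2.08 (SE 0.41), and the lowest adjusted p was 0.328.

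The difference in the day 7 response between canertinib arms and the others, a comparison added after the values were seen, is not moved by a constant shift between the array sets because days 0 and 7 of an arm share a set. It lay below 0 for 17 of 19 enzymes with a median of -1.27, limma called 0 members, 10 had an unadjusted p below 0.05, and 0.00737% of all genes were called. Fdps differed by -2.44 (SE 0.75, adjusted p = 0.686), Msmo1 by -2.44 (SE 0.71, adjusted p = 0.632) and Cyp51 by -1.72 (SE 0.46, adjusted p = 0.546). For the day 2 response 0 members were called by limma, with 4 at an unadjusted p below 0.05 and 0% of all genes called. Of those 4, Cyp51 (-1.36) and Hsd17b7 (-0.79) lay lower, and Scap (1.49) and Abcg8 (1.25) higher.

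Overlap of the arrays day by day gave the same order. Both canertinib arrays lay below both others at day 0 for 13 of 28 members, against 22.8% of all genes, at day 2 for 16, against 24.1%, and at day 7 for 19, against 22.9%. At day 14 this was so for 2 members, Tm7sf2 and Npc1, against 19.7% of all genes. The share at day 14 is below that of all genes, and days 0 to 7 are those on which drug and array set cannot be told apart.

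The second factor was the Met genotype. Over both diets limma called 0 members between the knockout and flox arms, with 0 at an unadjusted p below 0.05 and 0% of all genes called, and the largest difference of an enzyme in either direction was 0.24. That average joins opposite differences. Without the drug all 19 enzymes were lower in MET_KO than in MET_FLOX at day 7 (median -0.76) and at day 14 (median -0.92). At day 14, where both arrays are of the high set, 9 lay below -1, against 4.18% of all genes. At days 0 and 2, 9 and 3 of 19 were lower. With the drug 4 of 19 were lower in MET_KO_canertinib than in MET_FLOX_canertinib at day 7 (median 0.42) and 8 at day 14 (median 0.41). The medians of all genes in these comparisons lay between -0.05 and 0.01. These are differences between 1 array and 1 array, with no replicate.

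At day 14 the low arm was therefore MET_KO and not a canertinib arm. Fdps stood at 1631 in MET_KO against 7461 in MET_FLOX, Idi1 at 3107 against 10916, and Hmgcs1 at 6424 against 19650. Against MET_KO the enzymes of MET_KO_canertinib were higher at day 14 in 16 of 19 cases, with a median log2 difference of 0.77, led by Cyp51 (1.86), Lbr (1.74) and Sqle (1.73). MET_FLOX_canertinib against MET_FLOX had 13 of 19 lower, with a median of -0.30. The medians of all genes were 0.019 in the knockout pair and 0.014 in the flox pair. Leaving out the MET_KO day 14 array raised the count of members called with canertinib from 14 to 18. Leaving out day 7 of MET_FLOX or of MET_FLOX_canertinib lowered it to 9. Shares of all genes called are not given for these refits.

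On day 2, a time of hepatocyte division, limma called 0 members against day 0, with 2 at an unadjusted p below 0.05, against 0.383% of all genes. Those were Lbr and Tm7sf2, the enzymes with a shared reductase activity, and they differed in opposite directions. Lbr gave 628, 2495, 1290 and 789 in MET_FLOX and 1346, 2767, 1020 and 408 in MET_KO over the days. MET_FLOX_canertinib had 488, 1091, 1028 and 889, and MET_KO_canertinib 559, 875, 857 and 1401. Day 2 lay above day 0 in 4 of 4 arms, by 1.19 on average (SE 0.41, adjusted p = 0.298), whereas Tm7sf2 lay lower in 4 of 4 arms (-0.69, SE 0.22, adjusted p = 0.244). At day 14 against day 0 limma called 0 members, none had an unadjusted p below 0.05, and 0.0810% of all genes were called.

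The enzymes shared their profile over the arrays to different degrees. Each gene's log2 values were correlated with the mean profile of the other enzymes over 16 arrays, a description in which the arrays share arm, day and array set. For 12 of 19 enzymes r was above 0.8, led by Idi1 (0.98), Fdps (0.95), Msmo1 (0.95), Dhcr7 (0.93) and Nsdhl (0.93). In the 8 canertinib arrays alone Idi1 kept 0.98, Hmgcs1 0.96 and Cyp51 0.95. Over the 16 arrays Ggps1 (-0.52) and Lbr (0.21) stood apart, and Ebp (0.56), Tm7sf2 (0.59) and Sc5d (0.63) followed loosely. Within the 10 arrays of the high set these 5 had -0.02, -0.21, 0.38, 0.67 and 0.53, so the opposite course of Ggps1 was not seen there. Of the other members Insig1 (0.83) and Stard4 (0.68) were most like the enzymes over the 16 arrays. Npc1 (0.49), Srebf2 (0.43), Npc2 (0.34), Insig2 (0.12) and Scap (0.10) came next, and Abcg5 (-0.40) and Abcg8 (-0.54) ran the other way. In the high set Insig1 had 0.80, Stard4 0.64, Srebf2 0.53, Npc1 0.08 and Npc2 0.06. Insig2 had -0.21 there, Scap -0.14, Abcg5 -0.33 and Abcg8 -0.35.

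Ranked over all 13575 genes by r with the enzyme mean, 11 members came before the first gene outside the list, although each enzyme is part of that mean. The closest of the 13547 others over the 16 arrays were Isca2 (0.86), Rdh11 (0.84), Mmab (0.82), Snx4 (0.81), Emc2 (0.80), Kat6b (0.80), Cd47 (0.79) and Erg28 (0.79). Within the 10 arrays of the high set Erg28, a scaffold of sterol-modifying enzymes in the endoplasmic reticulum, reached 0.90. Rdh11, a retinol dehydrogenase, was lowest in the same array as most enzymes. MET_FLOX_canertinib read 1572, 764, 359 and 926, and MET_KO_canertinib 1203, 620, 695 and 887.

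Neighbouring pathways were described from lists that were fixed by function. Of 8 tested genes that process SREBP or regulate its partners, 1 was called higher with canertinib, Faf2 (0.49, SE 0.13, limma adjusted p = 0.0127), and 1 lower, Rnf139 (-0.64, SE 0.14, adjusted p = 0.00518), both acting in degradation at the endoplasmic reticulum. Of 12 genes that use isoprenoids only Rabggta, a subunit of a Rab prenyltransferase, was called (-0.35, SE 0.13, adjusted p = 0.0479). Of 12 genes of LXR, efflux and uptake 3 were lower: the lysosomal and endosomal genes Stard3 (-1.03, SE 0.20, adjusted p = 0.00365) and Lipa (-0.57, SE 0.13, adjusted p = 0.00785), and the HDL receptor Scarb1 (-0.39, SE 0.12, adjusted p = 0.0239). The list medians were -0.07, -0.02 and -0.15, and over all genes 24.0% were higher and 10.6% lower in this comparison. Of 13 clock genes, listed because cholesterol synthesis follows the time of day and sampling hours are not given, 3 were higher (Arntl, Per1 and Per3) and 1 lower (Clock), shares near those of all genes, and the part of time of day in the results was not tested.

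Some cell markers moved with the drug and the array sets. Hepatocyte markers, 10 genes of which at least 9 were above the array median everywhere, summed to 155464 to 319052 in the low set, 400206 to 403258 at day 14 without the drug, and 317611 to 577052 and 419885 to 566132 in the canertinib arms at days 0 to 7 and day 14. Sums of 8 neutrophil markers were 1721 to 4194, 4926 to 5210, 3014 to 12368 and 6451 to 44796 in the same order, and of 7 lymphocyte markers 1370 to 2104, 4060 to 4451, 3504 to 5286 and 3909 to 5301. Over all days these sums, and those of Kupffer, endothelial and stellate cell markers, overlapped between arms with and without the drug. At days 0 to 7 only the lymphocyte sums were apart. By limma 4 of 10 hepatocyte, 5 of 6 neutrophil and 4 of 6 lymphocyte markers tested were called higher and 0 lower, against 24.0% of all genes higher. Cps1 (-0.03) and G6pc (-0.71), both hepatocyte markers, lay below 0. With canertinib 0 of 8 Kupffer cell markers were called (median -0.14), and of 8 endothelial and 8 stellate cell markers 1 each was higher and 1 lower (medians -0.21 and 0.09). In whole liver RNA fewer hepatocytes and less RNA per hepatocyte cannot be told apart, and the part of cell makeup in the members' differences was not tested. With the 2 arrays of highest Gapdh ratio left out, 12 members were lower and 1 was higher with canertinib, against 10.3% and 23.4% of all genes. In MET_FLOX_canertinib against MET_FLOX 1 was then lower in place of 5, against 0.869% of all genes. The canertinib arrays that remained still had higher ratios than every array without the drug, so this does not part drug from ratio.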

How the data were processed

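Signals of 45101 probe sets on 16 arrays were used as deposited by the authors, a linear intensity from MAS5 per the submitters' processing notes, with a trimmed mean of 500 (2.0% off each end) in every array. Which MAS5 version was used is not stated in the labels. Probe sets of 1 gene (34945, against 932 of several and 9160 of none) were kept if at least 4 arrays exceeded their own median, and each gene took its brightest one by mean log2. Log2(signal + 16) was fitted as arm plus day in limma (version 3.58.1, R 4.3.3) with a variance trend, and adjusted over 13575 genes by the Benjamini-Hochberg method. Folds are on that scale and understate changes of dim genes. The fit was tested on simulated data with large added changes and no array set effect, so that test does not bear on comparisons confounded with array set. All 30 members are described by role, and genes outside the list are named if called in a pathway list or among the 8 most like the enzymes. The members and lists were chosen with earlier results of these data known. Alternatives changed the pseudocount, filter, scaling, probe set rule, array set term, days and arrays. The number of arrays limits the precision. Some genes of the pathway are not reported here.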

Additional observations from a re-analysis of the deposited data

How the results depend on the processing

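With 1 array per arm and day, every test borrows its spread from departures from the arm and day terms. Of the members called, the canertinib comparison had 0 with array set in the model, 0 at day 14 alone (where limma called 0 of all genes), 0 without the day 7 arrays (added after the data were seen) and 5 with quantile normalization, against 14. MET_FLOX_canertinib against MET_FLOX had 0 under the array set term, 0 without day 7, 0 with quantile normalization, 9 with median centring and 1 without the 2 arrays of highest Gapdh ratio (also added), against 5. MET_KO_canertinib against MET_KO had 4 with median centring and 1 with averaged probe sets, against 0. Shares of all genes called are not given for these settings in the pairs of one genotype. The 9, 4 and 1 therefore cannot be set against all genes. Without single arrays the counts of the drug comparisons ran from 9 to 18, 0 to 14 and 0 to 1, again with no share of all genes given. The knockout, interaction, day and day 2 response comparisons had 0, and the day 7 response was not refitted this way. At day 14 alone, and with the array set term, which rests on day 14 and gives the same estimates, the sign turned for Mvk (0.70), Pmvk (0.64), Idi1 (0.009), Lss (0.032), Msmo1 (0.29) and Dhcr7 (0.19). The cause was not tested. Leaving out 1 array of 16 ended the canertinib call of Pmvk in 12 cases, Lss in 11, Dhcr7 in 10, Sc5d in 5, Idi1 in 4 and Npc1 in 2, and in 0 cases for the other 8 genes. No fit with a replicate block was possible because each group has 1 array; day is a term in every fit over days, and pairs of one genotype and day are given in the report. Dim probe sets such as Mvk's carry the least signal over background.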
